A study of Mus musculus with 4 samples.

Results

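The nuclear factor I (NFI) family consists of the 4 genes Nfia, Nfib, Nfic and Nfix, and all start sites assigned to these 4 symbols were examined in skeletal muscle of mice with and without AMPKα2. They made up 103 of the 42207 sites in the table, with 40 sites for Nfia, 44 for Nfib, 8 for Nfic and 11 for Nfix, and 4 of 9838 gene symbols. The rule for members was the gene symbol, and it used no counts. At the level of whole genes, 0 of the 4 passed the test between the genotypes, where DESeq2 called 2.67% of all tested genes. No member was past an unadjusted DESeq2 p of 0.05, and none was called by edgeR. At the level of single sites, 1 intronic site of Nfia rose in the knockout from 25 reads over both wild-type libraries to 1346 reads over both knockout libraries, and 1 intronic site of Nfib rose from 13 to 210 reads. After scaling for library size these were 30.5-fold and 8.69-fold differences, and 2.33% of all tested sites were called higher in the knockout. The Nfib call (DESeq2 adjusted p 0.0843) was lost in edgeR and without any 1 library.

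NFI proteins bind DNA as dimers of any of the family's members, through a conserved N-terminal domain that recognizes the half-site TTGGC, and their C-terminal parts activate or repress transcription. The genes have several promoters and many spliced forms. In muscle, Nfix is known for the switch from embryonic to fetal myogenesis, where it acts downstream of Pax7 and on Sox6, Mef2c and Mstn, while Nfia is best known for the development of glia and Nfib for that of lung and forebrain.

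The study compared AMPKα2 knockout mice (KO) with wild-type controls (WT), with 2 male mice in each group. The KO mice were on the C57BL/6 background and about 8 weeks old, and lacked the part of Prkaa2 that codes for a portion of the catalytic domain. The WT mice were listed at 8 weeks too, and were otherwise described only as the wild-type controls. The muscle was gastrocnemius per the study's methods, and the labels give only muscle of adult mice. Total RNA was depleted of ribosomal RNA and sequenced from the 5′ end (WTSS-seq), so that each read marked the 5′ end of an RNA, whether whole or broken, and reads were counted per clustered alternative start site (ASS).

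Both KO libraries were deeper (2900279 and 2303294 reads) than both WT libraries (1300069 and 1568945 reads). NFI sites with a read numbered 90 and 84 in KO against 76 and 77 in WT, or 85.2, 77.9, 76.0 and 74.9 expected at the depth of WT replicate 1, the shallowest library. Summed reads of the targeted gene did not separate the genotypes, with a log2 fold change (log2FC) of KO to WT of -0.03 ± 0.50 (SE, as for all log2FC below) for Prkaa2, so they did not check the labels. Of the 19 Prkaa2 sites, 2 intronic ones had 0 reads in both KO libraries and reads in both WT libraries (19 and 4 at chr4:105047709-105047713, 5 and 8 at chr4:105055554-105055585), singled out after their values were seen. Of all sites in the table, 2.29% had 0 reads in both KO libraries, whatever their reads in WT. A drop in bulk tissue cannot tell fewer cells of a type from less RNA per cell.

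The sequence just before an annotated start shows what was looked for at each gene, namely reads that begin next to it. RefSeq promoter windows (GRCm38, 250 bases before to 50 after a start) were given for 3 of the 4 genes, 1 window for Nfia, 1 for Nfic and 4 for Nfix. The 60 bases before 4 of these starts are shown 5′ to 3′ on the strand of the gene, for Nfia (chr4:97581883-97581942, plus strand), Nfic (chr10:81427174-81427233, minus strand), the most upstream Nfix start (chr8:84780083-84780142, minus strand) and the most downstream Nfix start (chr8:84772876-84772935, minus strand). Capitals mark an NFI half-site, TTGGC or its reverse complement GCCAA.
Nfia: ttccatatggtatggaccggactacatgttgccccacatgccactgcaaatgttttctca
Nfic: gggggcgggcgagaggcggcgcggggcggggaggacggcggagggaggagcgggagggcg
Nfix, most upstream: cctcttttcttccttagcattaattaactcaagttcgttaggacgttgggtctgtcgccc
Nfix, most downstream: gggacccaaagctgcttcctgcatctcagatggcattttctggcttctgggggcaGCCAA

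None of the 103 NFI sites lay in one of these windows or in any other promoter window on its strand, which held 1005 of all 42207 sites (2.38%) and 4.45% of all reads. Of the genes in the table that had a window, 830 of 6841 (12.1%) had a site in one. The NFI site nearest to the Nfia start was 190 kb downstream of it, and the nearest to the Nfic start was 9.03 kb downstream. For Nfix, the nearest site lay 8.92 kb upstream of the most upstream of the 4 windowed starts and 9.29 kb downstream of the most downstream one. Nfib had no window, and its site nearest to the annotated start of the gene lay 0.97 kb inside it. In the 250 bases before the start, a half-site on either strand was found in 2 of the 4 Nfix windows and in neither the Nfia nor the Nfic window, against 41.5% of all 32851 windows. The whole NFI motif, TTGGC and GCCAA with 5 bases between them, was in 12 windows (0.0365%), and in none of the NFI genes.

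Most NFI sites lay in introns. A total of 65 of 103 (63.1%) had the class code i, for a site wholly inside an intron, against 52.0% of the 40426 sites with a gene, and 37 (35.9%) had the code c, for a site contained in an annotated transcript, against 38.6%. The remaining site had the code x, antisense to an exon of Nfib. It and 1 intronic Nfib site were the 2 sites on the strand opposite to their gene. Sites were narrow, with a median width of 21 bp (range 1 to 75), and lightly covered, with a median of 16 reads over the 4 libraries against 19 for all sites. Many lay near the annotated end of the gene, where 30 of the 103 were in the last 5% of the span, among them 9 of 40 Nfia sites, 14 of 44 Nfib sites and 7 of 11 Nfix sites.

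The summed reads of each gene were compared first. Nfia had 4524 and 1677 reads in KO replicates 1 and 2 and 1448 and 1877 in WT replicates 1 and 2. Nfib had 677 and 373 reads in KO against 221 and 191 in WT. These raw sums follow the depth of the libraries in part, so levels were compared after scaling.

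Normalized for library size, Nfia, the member with most reads, stood at 2763 and 1465 in KO against 2031 and 2338 in WT, with both WT libraries between the KO libraries. The means were 2114 ± 918 in KO against 2184 ± 217 in WT (SD, n = 2). The log2FC was -0.05 (95% interval -0.91 to 0.82), with a DESeq2 adjusted p of 0.992. Nfib was 414 and 326 in KO against 310 and 238 in WT. Its log2FC of 0.43 (95% interval -0.46 to 1.33) did not pass the test, with a DESeq2 adjusted p of 0.920.

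Nfic, at 40.3 and 124 in KO against 102 and 74.7 in WT, showed the largest ratio between replicates of 1 group. Its log2FC was -0.11 (95% interval -1.45 to 1.23, DESeq2 adjusted p 0.992). Nfix had the fewest reads over the 4 libraries together, with 89 and 61 in KO against 28 and 38 in WT. In KO replicate 1 Nfic had fewer (66). Normalized counts of Nfix were 54.4 and 53.3 in KO against 39.3 and 47.3 in WT. The log2FC of Nfix was 0.31 (95% interval -1.06 to 1.69, DESeq2 adjusted p 0.988). No NFI gene was therefore called, where 2.67% of all 4688 tested genes were called in either direction, and the intervals leave room for changes of more than 1 log2 unit in Nfib, Nfic and Nfix.

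**Figure D1:**
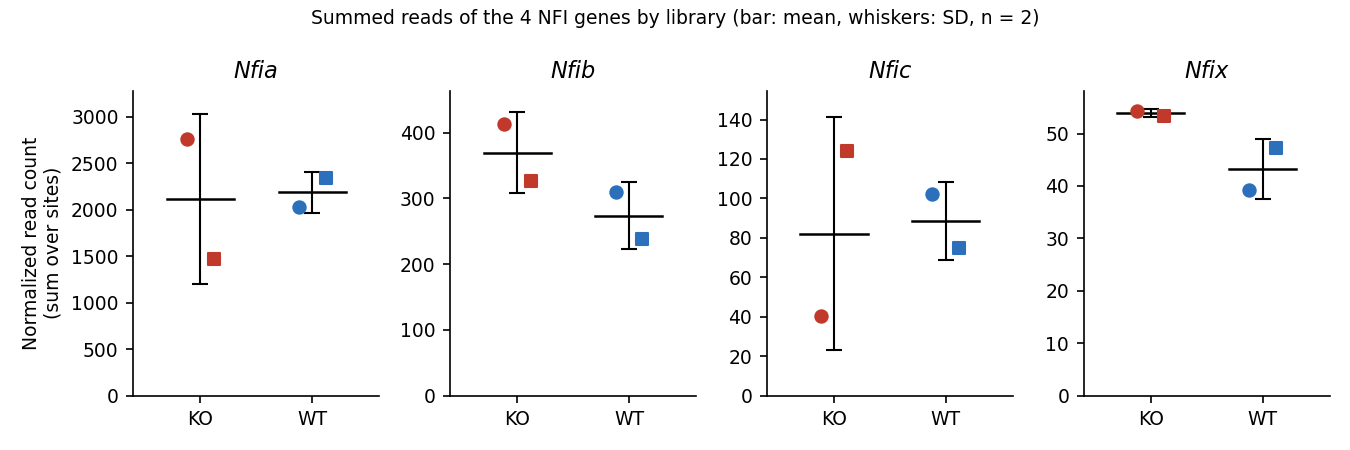
Summed normalized read count of Nfia, Nfib, Nfic and Nfix (vertical axes, each from 0) in the KO and WT libraries, with circles for replicate 1, squares for replicate 2, a bar for the mean and whiskers for the SD (n = 2). The KO libraries of Nfia (2763 and 1465) and Nfic (40.3 and 124) span the WT libraries, and no gene passed the test.

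Between genes, levels were set side by side as reads per kb of the annotated gene span and 1000000 reads of the library, which assumes that a longer span offers more places for a read to begin. On this scale Nfia (span 541 kb) stood at 2.88 and 1.35 in KO against 2.06 and 2.21 in WT. Nfib (217 kb) stood at 1.08 and 0.748 in KO against 0.785 and 0.562 in WT. The level of Nfia was 1.80 to 3.94 times that of Nfib within a library. The assumption is weak for Nfia, where 1 site held 58.2% to 90.3% of the reads by library.

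Nfic (35.7 kb) stood at 0.637 and 1.73 in KO against 1.57 and 1.07 in WT on the same scale, and its libraries overlapped those of both Nfia and Nfib. Nfix (96.5 kb) was lowest, at 0.318 and 0.274 in KO against 0.223 and 0.251 in WT, below the other members in every library. These are descriptions of levels, with no test between genes.

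The summed level of Nfia came largely from 1 site near the end of the gene. It lay at chr4:98112016-98112029 (plus strand, code c), 98.7% of the way along the span, and ranked 67 by reads among 42134 sites off the mitochondrial genome. It held 3170 of 4524 Nfia reads in KO replicate 1 and 976 of 1677 in KO replicate 2, against 1307 of 1448 and 1590 of 1877 in WT replicates 1 and 2. As shares, these were 70.1% (95% Wilson interval 68.7 to 71.4) and 58.2% (55.8 to 60.5) in KO and 90.3% (88.6 to 91.7) and 84.7% (83.0 to 86.3) in WT, so both KO shares lay below both WT shares. The intervals cover counting error only. A share also depends on the reads at the gene's other sites. The second Nfia site by reads held 20.3% and 25.5% in KO against 1.04% and 0.533% in WT.

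The level of this site itself did not differ beyond its error. Normalized counts were 2080 and 842 in KO against 1774 and 1837 in WT, with a log2FC of -0.30 ± 0.61 (DESeq2 adjusted p 1.00). The groups overlapped, with KO replicate 1 the highest library and KO replicate 2 the lowest.

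The called Nfia site was the second by reads, at chr4:97791040-97791084 (plus strand, code i), 213 kb from the annotated start of the gene and 39.4% along its span. It had 918 and 428 reads in KO against 15 and 10 reads in WT, and the groups were far apart. Normalized counts were 486 ± 165 in KO and 16.0 ± 6.23 in WT (SD, n = 2), a ratio of means of 30.5. The fitted log2FC was 4.94 ± 0.69 with a DESeq2 adjusted p of 6.27e-09 (0.0319 in edgeR). Over the alternatives it stayed between 4.52 and 5.39, and the call held in all of them, without each of the 4 libraries included, except edgeR with the replicate number as a block (adjusted p 0.108).

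The share of Nfia reads at this site was 20.3% (95% Wilson interval 19.1 to 21.5) and 25.5% (23.5 to 27.7) in KO, and 1.04% (0.629 to 1.70) and 0.533% (0.290 to 0.978) in WT. The rise was steep over a short distance. The next Nfia site began after 165 further bases, at chr4:97791250-97791289, and had 30 and 20 reads in KO against 15 and 5 in WT, with a log2FC of 0.51 ± 1.27 (DESeq2 adjusted p 1.00).

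Other intronic Nfia sites in this stretch gave smaller values. The site at chr4:97797010-97797016 had 77 and 51 reads in KO against 14 and 3 in WT, with both KO libraries above both WT libraries after scaling. Its log2FC of 2.09 ± 1.09 did not pass, with a DESeq2 adjusted p of 0.550. The site at chr4:97803148-97803172 had 20 and 37 reads in KO against 5 and 9 in WT (log2FC 1.38 ± 1.28, DESeq2 adjusted p 1.00). In all, 28 of the 40 Nfia sites lay between 190 and 330 kb from the annotated start, none lay before that stretch, and 9 lay in the last 5% of the span.

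2 sites contained in an Nfia transcript had more reads in WT replicate 2 than in any other library. They lay at chr4:98111772-98111819, with 30 and 20 reads in KO against 13 and 89 in WT, and at chr4:97772419-97772442, the first of the Nfia sites along the gene, with 21 and 18 reads in KO against 15 and 62 in WT. Their log2FCs were -1.71 ± 1.02 and -1.65 ± 1.04, with DESeq2 adjusted p of 0.697 and 0.745. For the first, the direction rested on WT replicate 2, without which the log2FC was 0.015.

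**Figure D2:**
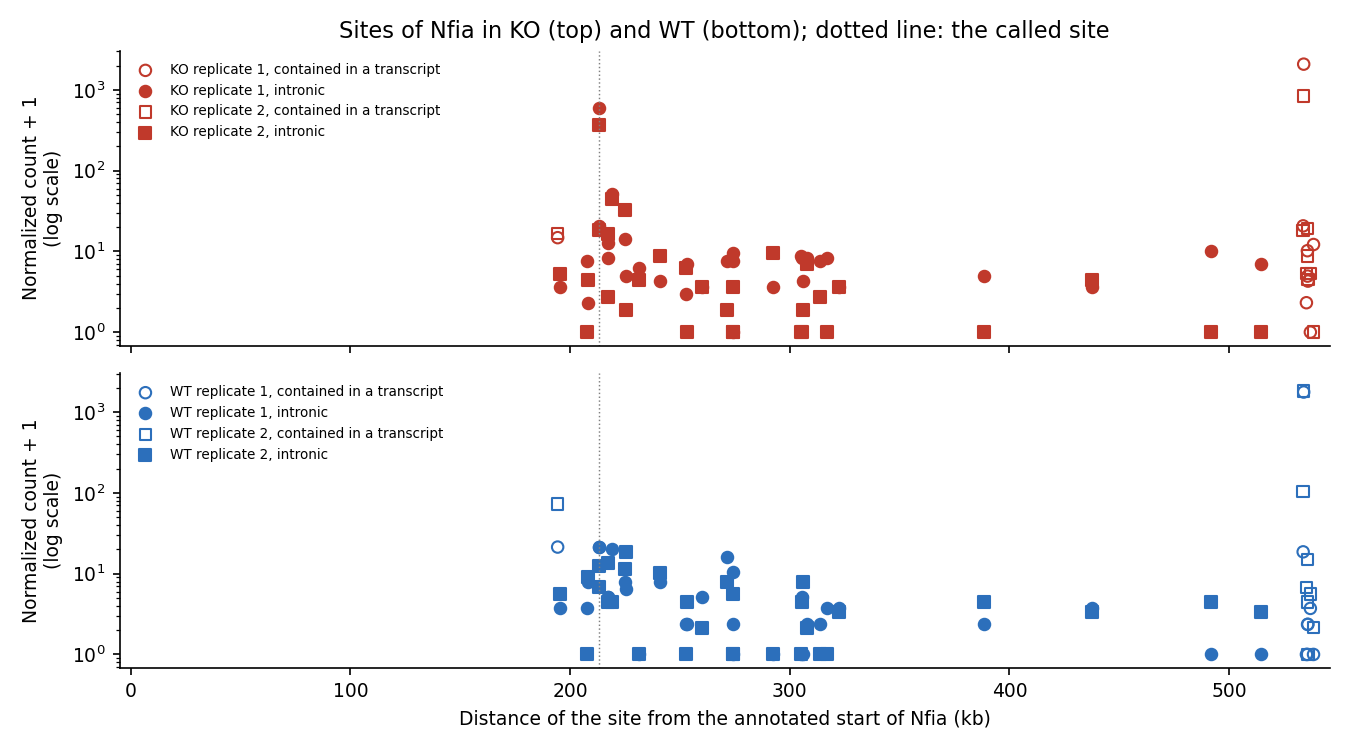
Normalized count plus 1 (log axis) of the 40 Nfia sites against their distance from the annotated gene start in kb, for the KO libraries (top) and the WT libraries (bottom). Filled symbols are intronic sites and open symbols sites contained in a transcript; at the dotted line, 213 kb from the start, the KO libraries stand at 602 and 369 and the WT libraries at 20.4 and 11.6, while the most-read site near 534 kb is high in all 4.

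Summed over classes, the 31 intronic sites of Nfia had 1259 and 619 reads in KO against 109 and 111 in WT, and the 9 sites contained in a transcript had 3265 and 1058 in KO against 1339 and 1766 in WT. An intronic sum for every gene, an alternative chosen after seeing the data, put Nfia 1.91 log2 units higher in KO (± 0.44, DESeq2 adjusted p 0.00232), where 1.31% of the 3817 genes tested on such sums were called higher. That sum rested on the called site. Without the called NFI sites, the intronic sum had 341 and 191 reads in KO against 94 and 101 in WT, a log2FC of 0.28 ± 0.50 and a DESeq2 adjusted p of 0.979. The median log2 ratio of the other 30 intronic Nfia sites was 0.58, beside 0.63 for all intronic sites in the table, so both stood at about the same height.

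Without its most-read site, the Nfia sum was 1.35 log2 units higher in KO (± 0.39, DESeq2 adjusted p 0.0827), with 1354 and 701 reads in KO against 141 and 287 in WT, where 0.498% of the 3013 genes tested in this way were called higher. The called site held 918 and 428 of those KO reads and 15 and 10 of those WT reads, so this sum, too, rested largely on it in KO.

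The use of sites within a gene was tested directly for 9 Nfia sites with diffSpliceDGE of edgeR. The Simes adjusted p over all 2145 genes tested was 0.0209, and 1.35% of those genes were called. The called site was used more in KO relative to the other Nfia sites, by 3.36 on the log2 scale (edgeR adjusted p over sites 0.00783), and no other Nfia site had an adjusted p under 0.1, the most-read site being at -0.27 (edgeR adjusted p 1.00). The Simes call held without KO replicate 2 (adjusted p 0.0650) and was lost without KO replicate 1 (0.157), WT replicate 1 (0.287) or WT replicate 2 (0.381). Nfib was tested over 10 sites (Simes adjusted p in edgeR 0.878) and Nfic over 2 (1.00), and Nfix had fewer than 2 sites past the filter.

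**Figure D3:**
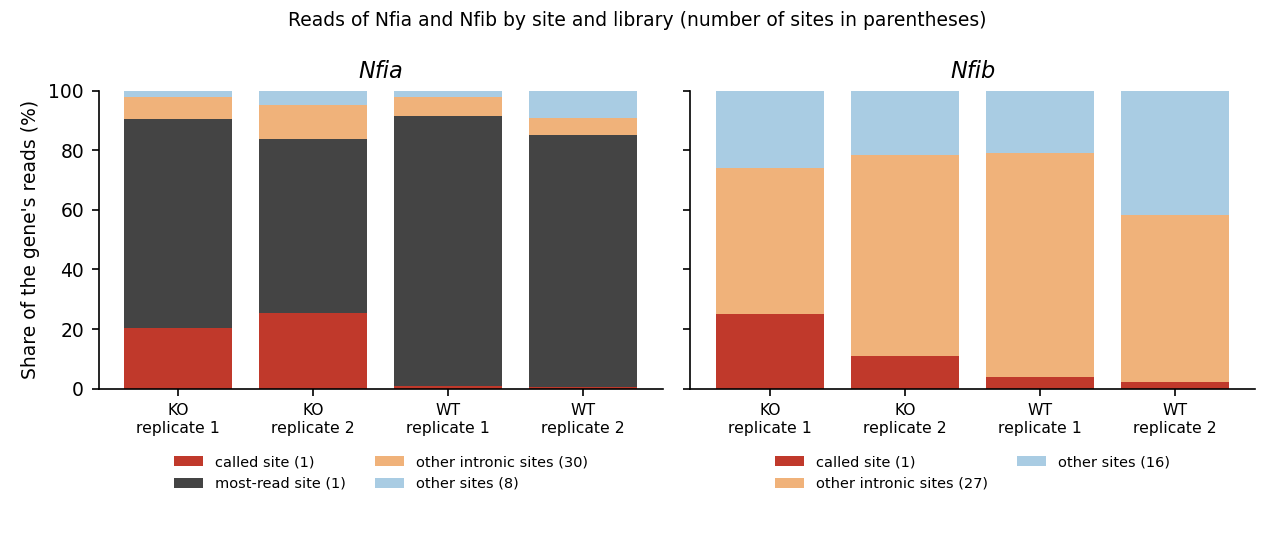
Share of the reads of Nfia (left) and Nfib (right) in percent by library, stacked by kind of site, with the number of sites in parentheses. The called Nfia site takes 20.3% and 25.5% in KO against 1.04% and 0.533% in WT, and the called Nfib site, which is also that gene's most-read site, takes 25.0% and 10.99% in KO against 4.07% and 2.09% in WT.

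Nfib had no site that outweighed the rest. Its most-read site, at chr4:82377764-82377788 (minus strand, code i), 129 kb from the annotated start, had 169 and 41 reads in KO against 9 and 4 in WT. Normalized counts were 73.1 ± 53.4 in KO and 8.42 ± 5.37 in WT (SD, n = 2), a ratio of means of 8.69, with both KO libraries above both WT libraries. The fitted log2FC was 3.14 ± 1.03 with a DESeq2 adjusted p of 0.0843, just inside the threshold of 0.1.

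This call was less firm than that of Nfia. The edgeR adjusted p was 0.213, and the DESeq2 call was also lost with independent filtering off (adjusted p 0.318) and without any 1 library, with adjusted p of 1.00, 1.00, 0.1004 and 0.511 in DESeq2 without KO replicates 1 and 2 and WT replicates 1 and 2. The log2FC stayed between 2.11 and 3.98 over the alternatives.

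Just outside the threshold lay the Nfib site at chr4:82293259-82293270 (minus strand, code c), 98.6% along the span, which had 61 and 23 reads in KO against 0 and 1 in WT. Its DESeq2 adjusted p was 0.102 and its edgeR adjusted p 0.123. A count of 0 of 221 Nfib reads in WT replicate 1 allowed a share of up to 1.71% (95% Wilson interval), against shares of 9.01% and 6.17% in KO, counting error only.

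The intronic site at chr4:82356838-82356849 had 23 and 47 reads in KO against 6 and 0 in WT (log2FC 2.80 ± 1.52, DESeq2 adjusted p 0.593). The intronic site at chr4:82314072-82314086 had 34 and 32 reads in KO against 12 and 4 in WT (log2FC 1.27 ± 1.23, DESeq2 adjusted p 1.00). The intronic site at chr4:82415536-82415610 went the other way, with 24 and 31 reads in KO against 25 and 38 in WT, a log2FC of -0.88 ± 0.97 and a DESeq2 adjusted p of 1.00. In each of these 3 sites the scaled libraries of the groups did not overlap, as at 22.2% of all sites with KO higher and 13.9% with WT higher, and none passed the test.

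1 Nfib site had 0 reads in both WT libraries and at least 5 in each KO library, at chr4:82401155-82401159, with 5 and 5 reads, too few to be tested. No NFI site had 0 reads in both KO libraries and at least 5 in each WT library. Without such a minimum, 10 of the 103 sites (9.71%) had no read in WT, beside 11.8% of all sites, and 3 (2.91%) had none in KO, beside 2.29%, with the KO libraries the deeper ones.

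**Figure D4:**
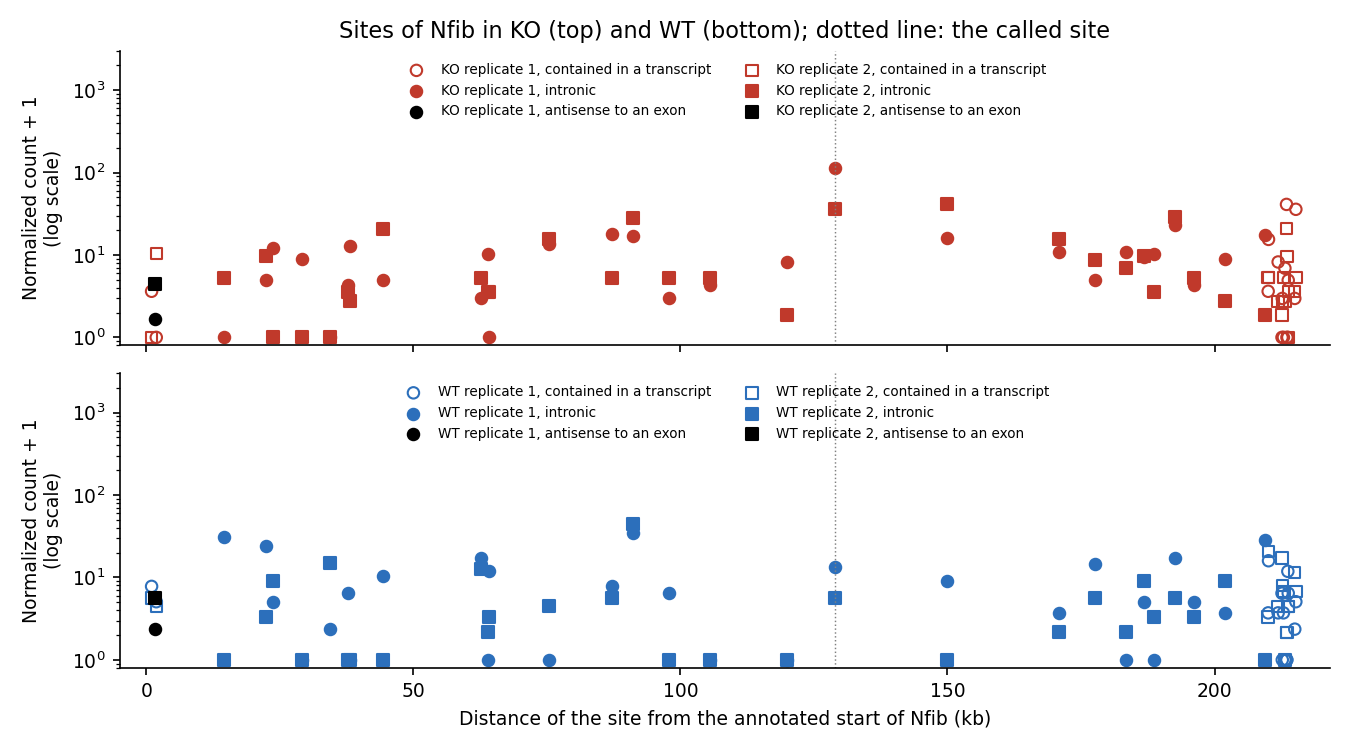
Normalized count plus 1 (log axis) of the 44 Nfib sites against their distance from the annotated gene start in kb, for the KO libraries (top) and the WT libraries (bottom), with filled symbols for intronic, open for contained and black for antisense sites. Sites are spread along the whole gene; at the dotted line, 129 kb from the start, the KO libraries stand at 111 and 35.4 and the WT libraries at 12.2 and 4.62.

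The sites of Nfic and Nfix were few and low. The main Nfic site, at chr10:81418134-81418145 (minus strand, code i), had 47 and 99 reads in KO against 45 and 30 in WT, with overlapping groups, a log2FC of 0.28 ± 0.88 and a DESeq2 adjusted p of 1.00. The next, at chr10:81399945-81399978 (code c), had 2 and 19 reads in KO against 16 and 11 in WT (log2FC -0.97 ± 1.49, DESeq2 adjusted p 1.00). The further Nfic sites fell under the mean count that was tested, and the 3 most-read of them, at chr10:81400106-81400114, chr10:81399069-81399110 and chr10:81399403-81399430, held 0 to 8 reads in any library.

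The main Nfix site, at chr8:84708582-84708617 (minus strand, code c), had 24 and 32 reads in KO against 10 and 15 in WT, with a log2FC of 0.48 ± 1.16 and a DESeq2 adjusted p of 1.00. It was the only Nfix site tested. The sites at chr8:84705704-84705736, chr8:84705614-84705659 and chr8:84706618-84706627, all of code c, held 0 to 10 reads in any library. The intronic site at chr8:84789000-84789004 had 14 reads in KO replicate 1 and 0 in the 3 others.

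Across the family, 21 of the 103 sites passed the filter on low means and were tested, 9 in Nfia, 9 in Nfib, 2 in Nfic and 1 in Nfix, and 12 of the 21 were intronic. A total of 2 were called higher in KO, where 2.33% of the 11112 tested sites of the table were called higher. Both were intronic, and the share called among intronic sites alone was not counted. Over the table, the median log2 ratio was 0.63 for intronic sites and -0.03 for sites of code c. None was called lower, where 0.882% of the tested sites were, and none that was lower had an unadjusted p under 0.05 or was called by edgeR. The log2FC was above 0 in 13 and below 0 in 8 of the 21 sites, with a median of 0.51 beside 0.10 over all tested sites. The filter used the mean of all 4 libraries, so a site could pass through the reads of 1 group alone. The share of all tested sites above 0 was not counted, and these values only describe the sites that passed.

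Over all 103 sites, tested or not, both KO libraries lay above both WT libraries at 27 sites (26.2%), beside 22.2% of all sites. Both WT libraries lay above both KO libraries at 13 (12.6%), beside 13.9% of all sites. The median log2 ratio of the 103 sites was 0.28, beside 0.30 for all sites of the table. By these values the family as a whole stood close to the rest of the table. The called sites were picked by their differences, so their distance from the family's median follows from that choice.

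**Figure D5:**
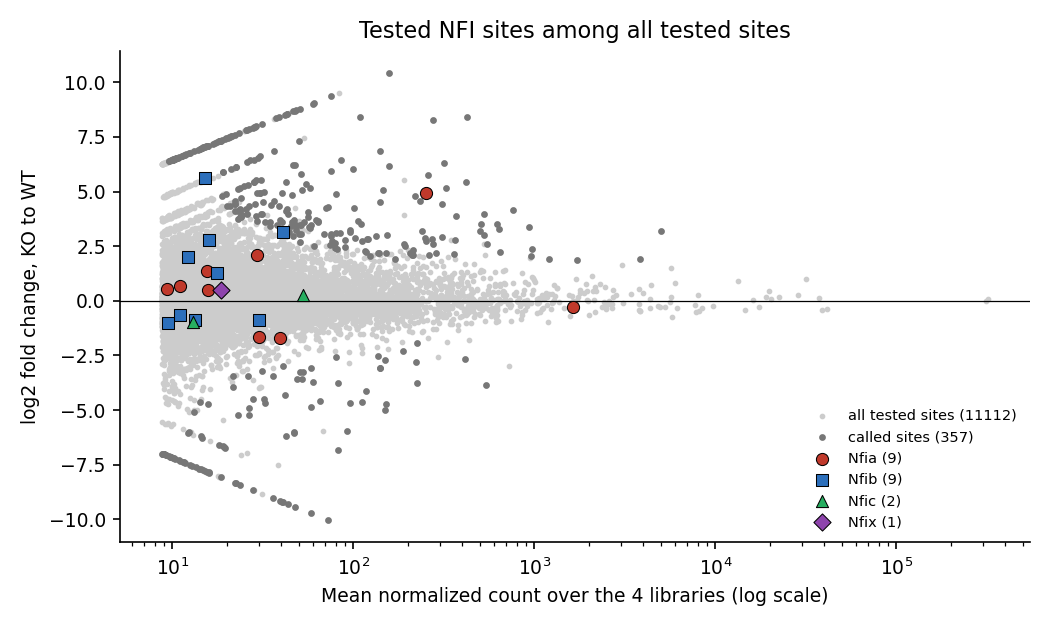
Fitted log2FC of KO to WT against the mean normalized count over the 4 libraries (log axis) for the 11112 tested sites (light grey), the called sites (dark grey) and the 21 tested NFI sites (coloured by gene). The called Nfia site stands at 4.94 and the called Nfib site at 3.14, and the most-read Nfia site, far to the right, at -0.30.

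Nfia and Nfib share chromosome 4 with the targeted gene, Prkaa2. The called Nfia site lay 7.24 Mb from the span of Prkaa2 and the span of Nfib 22.5 Mb from it. Of the other tested sites within 10 Mb of Prkaa2, 5 of 92 (5.43%) were called higher and 3 (3.26%) lower, beside 2.29% and 0.864% of the 10999 tested sites elsewhere. Loss of AMPKα2 and differences in the DNA around the targeted gene cannot be told apart in this design. Nfic on chromosome 10 and Nfix on chromosome 8 are not linked to Prkaa2.

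Of 15 genes known to act with the family in muscle, 10 had sites in the table, and all 10 were tested. DESeq2 called 0 of them higher or lower on summed reads, beside 2.67% of all tested genes. None was called by edgeR, and 2 had an unadjusted DESeq2 p under 0.05. The share of all tested genes under that unadjusted p was not counted. Upstream of Nfix, Junb, a subunit of the AP-1 transcription factor, had normalized counts of 33.6 and 23.6 in KO against 68.7 and 138 in WT (log2FC -1.85 ± 0.68, DESeq2 adjusted p 0.172). Rhoa, a small GTPase, had 175 and 77.8 in KO against 56.1 and 46.1 in WT (log2FC 1.31 ± 0.64, DESeq2 adjusted p 0.486). These were the 2 with an unadjusted p under 0.05, named after their values were seen.

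Among partners and targets, Mef2c, a transcription factor of muscle genes, had most reads, with normalized counts of 2811 and 9926 in KO against 6155 and 4441 in WT. Its log2FC was 0.27 ± 0.54 (DESeq2 adjusted p 0.984). Ckm, the creatine kinase of muscle, was 1307 and 1750 in KO against 1355 and 2001 in WT, Sox6, a repressor of slow-fibre genes, was 705 and 972 in KO against 759 and 852 in WT, and Myh7, the slow myosin heavy chain, was 574 and 806 in KO against 217 and 615 in WT. Their log2FCs were -0.14, 0.06 and 0.73, with DESeq2 adjusted p of 0.992, 0.992 and 0.798. Over the 10 genes the median log2FC was 0.14, beside 0.01 over all tested genes. No sites were assigned to Pax7, Mapk3, Prkcq, Nfatc4 or Eno3. A half-site lay in 8 of the 21 RefSeq windows of pathway genes (38.1%) in the 250 bases before the start, beside the 41.5% of all windows.

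The tissue was checked against markers of 8 cell types, 50 genes in all, of which 41 had sites and 33 were tested. None was called by DESeq2 or edgeR, where DESeq2 called 2.67% of all tested genes. An unadjusted DESeq2 p under 0.05 was found for 3, and the matching share of all tested genes was not counted. The muscle fibre list, complete in the table, summed to 75300 and 84459 in KO against 67795 and 93880 in WT. Fibroblast markers (7 of 7 in the table), whose cells also express NFI genes, summed to 3029 and 2822 in KO against 3949 and 3708 in WT. Macrophage and leukocyte markers (5 of 6, without Cd68) summed to 188 and 189 in KO against 414 and 262 in WT.

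In the fibroblast, macrophage and leukocyte, and smooth muscle and pericyte lists the sums of both KO libraries lay below both WT libraries. In the blood list both lay above. Single genes went against their list, with Csf1r, Myh11 and Tagln higher in KO by log2FC and Hba-a1 lower. How often sums of other genes fall in such an order was not counted. Adipocyte markers (5 of 6, without Cidec) summed to 5881 and 2943 in KO against 5829 and 3262 in WT. Nearly all of this was Fabp4, at 5792 and 2861 in KO against 5720 and 3197 in WT. Endothelial markers (6 of 6) summed to 67.2 and 149 in KO against 122 and 108 in WT. Smooth muscle and pericyte markers (5 of 5) summed to 189 and 304 in KO against 318 and 466 in WT. Of these, Rgs5 alone stood at 122 and 148 in KO against 189 and 344 in WT. Blood markers (2 of 5, without Hba-a2, Hbb-bs and Hbb-bt) summed to 28.1 and 24.5 in KO against 21.0 and 16.2 in WT. Of the satellite cell list only Vcam1 had sites, at 40.3 and 27.1 in KO against 153 and 39.9 in WT, and Pax7, Myf5, Calcr and Chrdl2 had none. The part of these cell types in the levels of the NFI genes was not tested.

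The genes whose pattern over the 4 libraries was most like that of each member were named by the distance between log2 normalized counts centred on their mean, among 2396 genes with a mean of at least 50. For Nfia these were Nbas (distance 0.0648), Orc4 (0.0864) and Ube2e2 (0.0911), where the median distance was 1.12. For Nfib they were Ptprg (0.0801), Phlpp1 (0.0878) and Ptk2 (0.0890), for Nfic Rnf103 (0.189), Tmtc2 (0.241) and Ifitm3 (0.242), and for Nfix Epb41 (0.118), Ube2k (0.128) and Celf2 (0.130). Between members, the distance ran from 0.521 for Nfib and Nfix to 1.84 for Nfia and Nfic, beside median distances to all candidates of 1.00 for Nfib, 0.925 for Nfix and 1.48 for Nfic. With 4 libraries many genes share a pattern, and the distances are a description.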

How the data were processed

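The authors deposited 1 table of raw read counts per clustered 5′ site, with 1 column per library. Coordinates follow GRCm38 (p5 per the labels). Aligner and clustering settings for the 5′ ends were not given in the sources used here, and the study's methods describe the 3′ libraries. Each site carried the authors' gene symbol and Cuffcompare class code. The table held 42207 sites with at least 10 reads in total, and 1 line of totals, which was left out. The labels describe PCR amplification but no molecular identifiers, so PCR copies stayed in the counts.

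Groups were taken from the labels. Sites, and counts summed per symbol, were compared with DESeq2 1.42.0 in R 4.3.3 (Wald test, median-of-ratios size factors, default independent filtering, Benjamini-Hochberg adjusted p under 0.1), following the study's methods. Filtering left sites with a mean normalized count above 8.76 and genes above 16.5. Site usage was tested with diffSpliceDGE of edgeR 4.0.16 (Simes). Fits used all sites or genes. The scripts were tested on simulated data.

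Median log2 ratios used a pseudocount of 0.5, distances between patterns 1. Named sites were the 5 with most reads of each gene, called sites, sites with 0 reads in one group and at least 5 in each library of the other, and sites within 500 bp of a gene start, of which there were none; other sites were named after their values were seen. Pathway genes named were the 4 with most reads and any called. Gene spans and promoters came from RefSeq (GRCm38.p6), which shares chromosome coordinates with the files' build. One further marker list, of which 0 genes passed the filter for testing, is not reported here. The members and lists were chosen with earlier results of these data known. P-values rest on 2 mice per group, with a spread estimated in part from all sites or genes together. Alternatives were edgeR's quasi-likelihood test, size factors, filters and thresholds, a block for the replicate number, and leaving out each library.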

Additional observations from a re-analysis of the deposited data

How the results depend on the processing

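At an adjusted p under 0.1 in DESeq2, 2 NFI sites were called higher in KO. This count was 1 with edgeR, with independent filtering off, with an adjusted p under 0.05 and with a replicate block in DESeq2, and 0 with a replicate block in edgeR; it was 1 whichever library was left out. No NFI site was called lower, and no pathway gene was called, under any alternative run. The number of NFI genes called on summed reads was 0 under every other alternative, and 1 with intronic sites only or without the most-read site of each gene, counts chosen after seeing the data. The number called for site usage was 1 and fell to 0 to 1 when each library was left out, remaining 1 without KO replicate 2 alone. Over 12055 sites the correlation of same-numbered deviations from the group means was 0.06. This value cannot tell whether mice of the same number were paired, so the block stands as an alternative. The block moved no other count.

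Directions that turned belonged to results that had not passed the test. On summed reads, the log2 fold change of Nfia, -0.05, was -0.57 to 0.35 when each library was left out, 1.35 without the most-read site, 1.91 with intronic sites and 0.28 with intronic sites without the called sites. That of Nfic was -1.12 to 0.50 when each library was left out and 0.022 with intronic sites, with or without the called sites. Among single sites, leaving out each library gave -1.06 to 0.19 for chr4:98112016-98112029, -2.47 to 0.015 for chr4:98111772-98111819, -0.65 to 0.87 for chr10:81418134-81418145, -0.60 to 0.11 for chr10:81399069-81399110, -1.17 to 3.56 for chr10:81399403-81399430, -0.78 to 0.25 for chr8:84705704-84705736 and -0.64 to 4.68 for chr8:84705614-84705659. The replicate block gave 1.19 for chr10:81399403-81399430. The cause was not tested. With 2 libraries per group and 82 of 103 NFI sites under the tested mean count, changes at most NFI sites were not detectable at this depth.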

Other observations

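Transcripts of 2 other genes had sites inside NFI gene spans and on the same strand, and their reads were not counted for the family. 2310067E19Rik, inside Nfib, had a site at chr4:82457774-82457776 with 29 and 46 reads in KO against 6 and 0 in WT (log2FC 2.88 ± 1.48, DESeq2 adjusted p 0.529), and a site at chr4:82451002-82451017 with 60 and 25 reads in KO against 27 and 24 in WT (log2FC -0.07 ± 0.96, DESeq2 adjusted p 1.00). Gm40208, inside Nfia, had 3 sites with 0 to 13 reads in any library, too few to be tested. An unassigned site inside Nfib, at chr4:82505838-82505858, had 4 and 0 reads in KO against 8 and 0 in WT.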
